A study of Rattus norvegicus with 17 samples.

Results

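The cell cycle and mitosis genes described here were 42 genes chosen by name, covering the cyclins and their kinases, the replication machinery, nucleotide synthesis, and the kinases, motors and checkpoint proteins of mitosis. A member was any probe set whose only gene symbol in the probe annotation was one of these 42. Of the 42 genes, 40 had 56 such probe sets among the 31099 of the array, and Rrm2 and Tpx2 were not analysed here. At the probe set with the highest mean signal, which stands for the gene below, 27 genes were bright enough to be tested, of 10431 such named genes on the array, and 13 were not. The study measured gene expression with Affymetrix rat arrays in spinal cord neurons that had been labelled retrogradely, that is, by a tracer carried back along the axon to the cell body. Each of the 17 samples was 1000 such neurons cut by laser from 10 µm cryosections of unfixed cord, and its RNA was amplified in repeated rounds before labelling. Neurons that were regenerating their axon and neurons that were not both came from 5 rats whose names start with MM (MM11, MM13, MM14, MM16 and MM17) and from MOON265 and MOON266, giving 7 regenerating and 7 non-regenerating samples. The 3 samples of traced neurons without axotomy were from the rats MM15, labelled as a high yield replicate, MM18 and MM19. The strain, sex and age of the rats, the kind of lesion, the time after it and the meaning of the MM and MOON prefixes are not given in the sources used here.

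A cell that divides first makes D cyclins, which activate Cdk4, and then E and A cyclins, which activate Cdk2 and start DNA replication. Cyclin B with Cdk1 then drives the cell into mitosis, where kinases, motor proteins and the anaphase-promoting complex (APC/C) separate the chromosomes and the daughter cells. Mature neurons have left this cycle for good, although single members such as the replication clamp Pcna, which also serves DNA repair, are used outside division. In a captured sample, fewer cells of a type and less RNA per cell cannot be told apart.

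Signals were used on the authors' linear scale, and differences are log2 fold changes of the signal plus an offset of 16, given with the standard error (SE) of limma and a p adjusted over all 18625 tested probe sets, with 7 pairs of samples within animals or 7 against 3 samples between animals. The number of arrays limits the precision, and the p-values measure the spread between these samples. All 12 markers of neurons passed the filter on low signals, with a summed signal of 19845.5 to 34381.0 in regenerating, 18083.4 to 53699.0 in non-regenerating and 24046.1 to 54205.3 in not axotomised samples. Of the 16 markers of microglia and macrophages, 4 (Itgam, Cx3cr1, C1qb and Tyrobp) were too dim, and the summed signal was 9838.7 to 17836.7 in regenerating, 9943.9 to 16685.1 in non-regenerating and 5790.2 to 7417.5 in not axotomised samples. The 9 astrocyte markers summed to 12599.3 to 21602.6, 12480.2 to 22335.8 and 11403.9 to 12338.9 in the same order of groups. The median signal of an array was 32.8 to 60.6 in regenerating, 33.9 to 76.9 in non-regenerating and 63.7 to 76.0 in not axotomised samples, and it was 32.8 to 39.0 on the 4 MOON arrays. MM17 among the non-regenerating and MM15 among the not axotomised arrays stood apart, since their correlations with the rest had medians of 0.847 and 0.821. All not axotomised rats were MM rats.

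The cell cycle genes were dim in all 3 groups. The median signal of the 27 tested members was 38.3 to 93.0 on regenerating, 52.4 to 123.5 on non-regenerating and 94.4 to 121.7 on not axotomised arrays. Divided by the median of all tested probe sets of the same array, this was 0.38 to 0.65, 0.44 to 0.79 and 0.60 to 0.78 in the same order of groups. Only Ccnd2, Pcna and Ccne2 had a median over the 17 arrays above 500, at 606.3, 588.8 and 605.9, and the next were Mcm4 at 220.7 and Cdk4 at 208.2. The probe sets of different genes bind with different strength, so that this order describes the signals and not the number of transcripts.

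**Figure D1:**
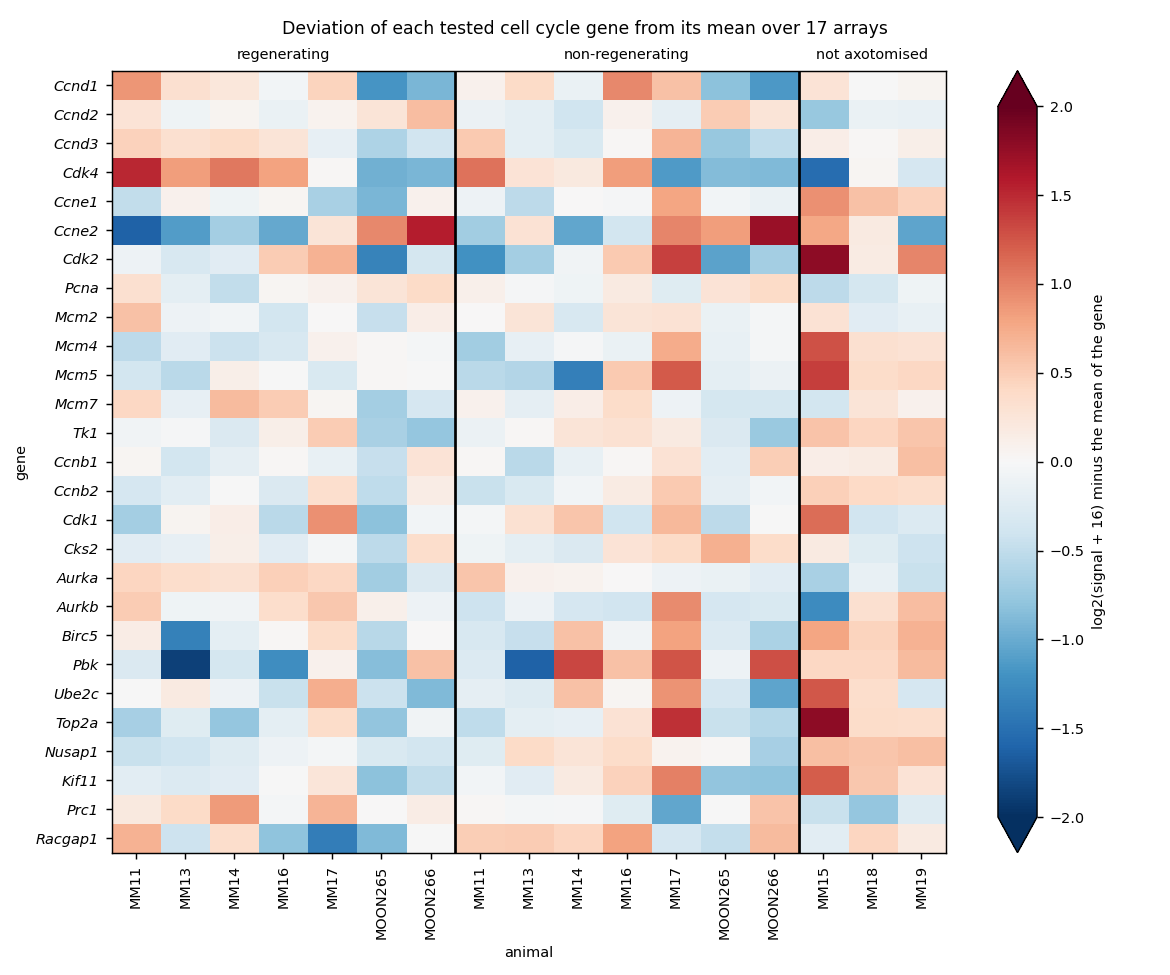
Deviation of each of the 27 tested cell cycle genes (rows, in the order of their roles) from its own mean over the 17 arrays (columns, by group and animal), on the log2 scale of signal plus 16, with colours saturating at 2 in either direction. The column of not axotomised MM15 is the highest of its group for 16 genes and that of non-regenerating MM17 the highest of its group for 13.

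Within each of the 7 animals, regenerating neurons were set against non-regenerating ones, which addresses the genes that accompany regrowth. No cell cycle gene passed limma at an adjusted p under 0.05, against 3 of 18625 probe sets in all (0.0161%). The member furthest from 0 was Pbk, a mitotic kinase, at -0.92, and 7 of 7 animals had it lower in regenerating neurons. Of the 27 tested members, 8 were higher and 19 lower, and 49.8% of all probe sets were higher. The median over the members was -0.09, with a range of -0.92 to 0.43, against 0.00 over all tested probe sets. At an unadjusted p under 0.05, 1 member was higher (Cdk4) and 3 were lower (Pbk, Racgap1 and Ccne2), where 4.26% of all probe sets lay above 0 and 2.81% below at such a p. The signals of the 2 groups failed to overlap for 0 of the 27 members and for 0.0215% of all probe sets.

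Between non-regenerating and not axotomised neurons, a comparison between animals that asks which genes go with axotomy, no cell cycle gene passed limma, against 8 probe sets in all (0.043%). The lowest members in non-regenerating neurons were Cdk2, at -1.24, Mcm5 at -0.88 and Top2a at -0.86, and the highest was Cdk4, at 0.54. The second tested probe set of Top2a differed in the other direction, as described below. Cdk2 and Mcm5 passed the filter through the not axotomised arrays alone: their mean log2 signal over the 14 axotomised arrays was 5.61 and 5.54, under the limit of 5.65, against 6.79 and 6.41 over the 3 not axotomised arrays. They could be tested only where they were lower after axotomy, so their place here and in the next comparison, and the counts that hold them, are a description and no support for a direction. Of the 27, 9 were higher and 18 lower, and 38.8% of all probe sets were higher. The median was -0.13 over the members and -0.12 over all probe sets. At an unadjusted p under 0.05, 3 members were lower (Cdk2, Mcm4 and Ccne1) and 0 higher, where 7.61% of all probe sets were lower and 2.68% higher, and the count moved with single arrays. It was 0 in both directions without not axotomised MM15, where 1.88% of all probe sets were lower and 1.57% higher, and also without non-regenerating MM11, MM13 or MOON265, where 4.43% to 5.13% were lower and 2.13% to 2.27% higher. Without non-regenerating MM17, 9 were lower and 1 higher, where 18.3% of all probe sets were lower and 5.88% higher. The signals of Nusap1 and Tk1 did not overlap between the groups, as held for 2.56% of all probe sets.

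Between regenerating and not axotomised neurons, which share the 3 not axotomised arrays with the comparison above, the median over the members lay further below 0. No member passed limma, against 40 probe sets in all (0.215%), and the smallest adjusted p of a member was 0.0684, for Nusap1. Of the 27, 8 were higher and 19 lower, and 40.8% of all probe sets were higher. The median was -0.41 over the members and -0.12 over all probe sets. With no filter on low signals it was -0.25 over 40 members and -0.17 over all 31042 probe sets. At an unadjusted p under 0.05, 11 members were lower, among them Top2a, Cdk2, Pbk, Kif11, Ccne1, Mcm5, Nusap1 and Mcm4, and 2 were higher, Prc1 and Ccnd2, where 17.6% of all probe sets were lower and 5.98% higher. Top2a counts among the 11 at its brighter probe set, while its second tested one differed in the other direction, as described below. The signals of 8 members did not overlap between the groups, as held for 11.7% of all probe sets. Prc1 lay above and Birc5, Ccnb2, Ccne1, Kif11, Mcm4, Mcm5 and Nusap1 below the not axotomised arrays.

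The size of these differences and the direction of single members moved with the scaling and with 1 array. The direction of the median over the members changed with centring in non-regenerating against not axotomised neurons. With each array centred on its median, the median over all probe sets was 0.24 for non-regenerating and 0.26 for regenerating against not axotomised neurons. Over the members it was then 0.23, with 16 higher and 11 lower, and -0.02, with 13 higher and 14 lower. Under that scaling 5 members were higher and 4 lower in regenerating than in not axotomised neurons at an unadjusted p under 0.05. On the whole array the shares were 20.4% higher and 7.1% lower. Of the 18625 probe sets, limma then called 300 higher and 50 lower, with Aurka and Prc1 among the higher ones. With no centring it called 29 higher and 11 lower in this comparison. Without not axotomised MM15, the uncentred median was -0.29, with 1 member higher and 3 lower at that p, where 9.16% of all probe sets were lower and 2.63% higher. With all arrays the microglial genes Laptm5 and C1qa and the astrocyte gene Gfap were called higher by limma in regenerating than in not axotomised neurons, by 1.58, 1.52 and 1.33 (adjusted p = 0.0209, 0.029 and 0.026). Without MM15 they differed by 1.44, 1.41 and 1.16 and were not called (adjusted p = 0.157, 0.219 and 0.157 by limma). The part of the microglia and astrocyte markers and of the median signal of the arrays in these differences was not tested.

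**Figure D2:**
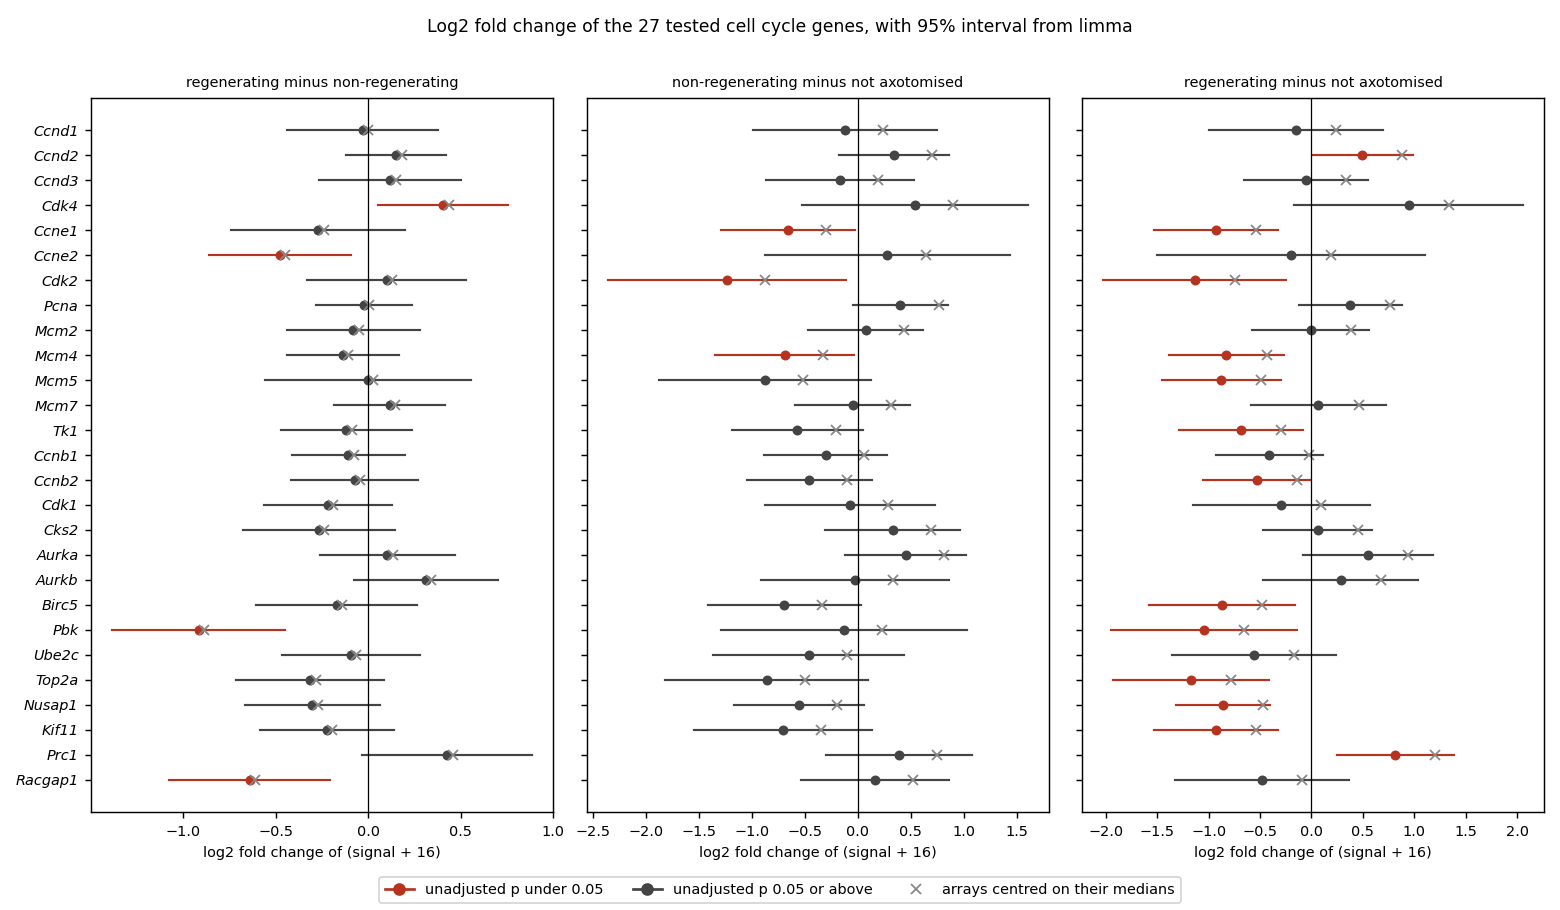
Log2 fold change of the signal plus 16 (horizontal axis) of the 27 tested cell cycle genes in the 3 comparisons, with the 95% interval of limma as a line, red where the unadjusted p was under 0.05. Grey crosses give the value after centring of the arrays on their medians, and the cross lies to the right of the point for every gene in the 2 comparisons with not axotomised neurons.

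A feature that the choice of members did not use is the promoter. RefSeq promoters of the rat build GRCr8, from 250 bases before to 50 after the start of the gene, were at hand for 31 of the 42 members. They were searched on both strands for the CCAAT box (CCAAT, bound by NF-Y), for the cell cycle homology region (CHR, TTTGAA, bound by the DREAM complex of resting cells), and for 4 words of the E2F site (TTTCCCGC, TTTCGCGC, TTTGCCGC and TTTGGCGC). A CCAAT box stood in 23 of the 31 promoters (74.2%) and in 37.7% of all 27457 promoters, a CHR in 14 (45.2%) and in 18.1%, and both in 12 (38.7%) and in 7.25%. An E2F word stood in 7 (22.6%) and in 2.25%. A match describes the letters and shows no binding. The promoters of Top2a, Nusap1 and Cdk1 are shown because they hold both a CCAAT box and a CHR and belong to mitotic genes, that of Mcm5 because it holds E2F words, and that of Cdk4, the member furthest above 0 in both comparisons with not axotomised neurons, because it holds none of the 3 motifs. They lie at chr10:84473044-84473343 (- strand), chr3:127057045-127057344 (+ strand), chr20:19265043-19265342 (+ strand), chr19:13488563-13488862 (+ strand) and chr7:64771203-64771502 (+ strand), are written 5′ to 3′ along the gene, and have the motif matches in capitals, where ATTGG and TTCAAA are matches on the other strand and the 12-letter run in Mcm5 is a pair of overlapping E2F words.
Top2a: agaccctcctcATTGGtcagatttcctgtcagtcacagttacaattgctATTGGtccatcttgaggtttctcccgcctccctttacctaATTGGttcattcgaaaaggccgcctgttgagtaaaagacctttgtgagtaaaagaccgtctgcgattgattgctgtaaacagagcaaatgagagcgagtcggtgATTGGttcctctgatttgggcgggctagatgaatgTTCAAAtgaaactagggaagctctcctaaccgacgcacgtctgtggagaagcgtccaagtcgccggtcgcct
Nusap1: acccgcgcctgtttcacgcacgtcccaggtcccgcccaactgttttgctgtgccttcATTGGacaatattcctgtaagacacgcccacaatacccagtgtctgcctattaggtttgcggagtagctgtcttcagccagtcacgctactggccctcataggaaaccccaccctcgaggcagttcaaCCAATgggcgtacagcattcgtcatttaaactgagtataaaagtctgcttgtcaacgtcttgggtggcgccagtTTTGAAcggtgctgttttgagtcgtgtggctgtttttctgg
Cdk1: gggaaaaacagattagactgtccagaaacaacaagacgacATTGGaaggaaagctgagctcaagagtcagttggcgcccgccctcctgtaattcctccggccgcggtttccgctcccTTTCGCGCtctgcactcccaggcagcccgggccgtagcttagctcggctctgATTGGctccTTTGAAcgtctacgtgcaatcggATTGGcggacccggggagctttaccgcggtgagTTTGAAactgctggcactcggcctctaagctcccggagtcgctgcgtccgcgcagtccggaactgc
Mcm5: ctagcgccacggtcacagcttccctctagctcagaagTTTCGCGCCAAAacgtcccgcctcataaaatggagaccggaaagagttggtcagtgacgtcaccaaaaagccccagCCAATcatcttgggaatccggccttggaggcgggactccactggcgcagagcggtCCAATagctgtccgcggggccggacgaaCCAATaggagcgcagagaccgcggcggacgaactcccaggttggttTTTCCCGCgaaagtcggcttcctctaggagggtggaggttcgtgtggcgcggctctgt
Cdk4: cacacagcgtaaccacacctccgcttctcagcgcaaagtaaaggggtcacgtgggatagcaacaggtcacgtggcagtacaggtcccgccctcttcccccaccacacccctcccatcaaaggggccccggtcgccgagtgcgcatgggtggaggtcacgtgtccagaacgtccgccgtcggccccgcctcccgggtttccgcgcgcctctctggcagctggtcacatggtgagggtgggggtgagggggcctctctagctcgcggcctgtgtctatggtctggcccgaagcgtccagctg

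The D cyclins and their kinase Cdk4 were all bright enough to test. In the sentences on signals below, 3 values are given for regenerating and for non-regenerating neurons, the lowest, the median and the highest of the 7 arrays. Ccnd2, which encodes cyclin D2, had signals of 582.7, 672.1 and 996.1 in regenerating neurons, 485.7, 592.3 and 924.4 in non-regenerating neurons, and 374.6, 583.3 and 577.6 in the not axotomised neurons of MM15, MM18 and MM19. It differed by 0.15 (SE 0.13, adjusted p = 0.786 by limma) for regenerating against non-regenerating neurons, 0.34 (SE 0.24, adjusted p = 0.564 by limma) for non-regenerating against not axotomised neurons and 0.49 (SE 0.23, adjusted p = 0.208 by limma) for regenerating against not axotomised neurons. The groups overlapped, and the lowest array was that of MM15. Cdk4, the partner of the D cyclins, had signals of 96.4, 365.3 and 604.0 in regenerating neurons, 83.8, 235.6 and 450.4 in non-regenerating neurons, and 59.8, 208.2 and 157.1 in the not axotomised neurons of MM15, MM18 and MM19. Its differences were 0.40 (SE 0.17, adjusted p = 0.678 by limma) for regenerating against non-regenerating neurons, 0.54 (SE 0.50, adjusted p = 0.665 by limma) for non-regenerating against not axotomised neurons and 0.94 (SE 0.52, adjusted p = 0.292 by limma) for regenerating against not axotomised neurons. The 4 MOON arrays lay at 96.4 to 103.6, close to one another and below 9 of the 10 axotomised MM arrays. Within animals Cdk4 was higher on the regenerating side in 4 of 7 animals, by 0.59 among the MM animals, whereas among the MOON animals it differed by -0.06.

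Cyclin D1, encoded by Ccnd1, had signals of 42, 137.7 and 227.0 in regenerating neurons, 43.7, 124.5 and 241.6 in non-regenerating neurons, and 144.0, 115.7 and 120.9 in the not axotomised neurons of MM15, MM18 and MM19. It differed by -0.03 (SE 0.19, adjusted p = 0.979 by limma) for regenerating against non-regenerating neurons, -0.12 (SE 0.40, adjusted p = 0.928 by limma) for non-regenerating against not axotomised neurons and -0.15 (SE 0.39, adjusted p = 0.853 by limma) for regenerating against not axotomised neurons. The spread lay between the prefixes, since the 4 MOON arrays had 42 to 58.7 and the 10 axotomised MM arrays 103.6 to 241.6, with no overlap. Ccnd3, the third D cyclin gene, lay at 52.4 to 73.1 on the MOON arrays and 77.4 to 169.9 on the axotomised MM arrays, and differed by 0.12, -0.17 and -0.05 in the 3 comparisons in the order above. The other tested probe sets of Ccnd1 did not split the prefixes in this way, and in regenerating against not axotomised neurons they differed by -0.21 and 0.32.

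**Figure D3:**
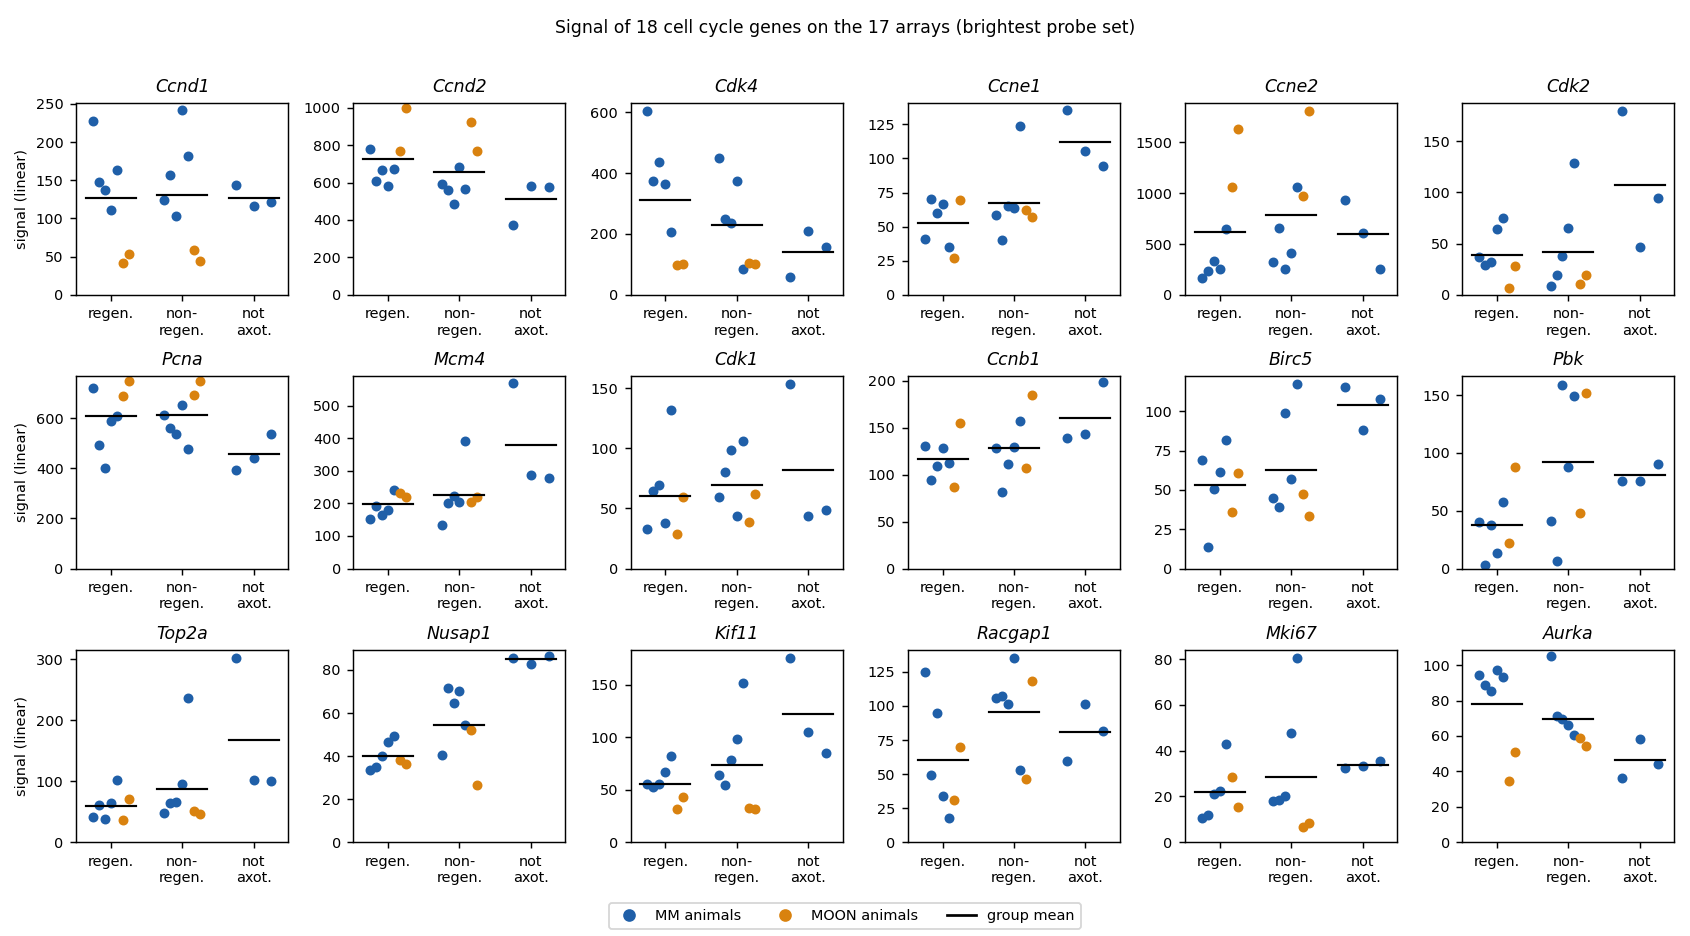
Signal (linear, vertical axes from 0) of 18 cell cycle genes on every array, at the brightest probe set, in regenerating, non-regenerating and not axotomised neurons, with MM animals in blue, MOON animals in orange and a black line at the group mean. Ccnd1 shows the MOON arrays at 42 to 58.7 below all axotomised MM arrays, and Nusap1 shows the regenerating arrays at 33.4 to 49.3 below the not axotomised arrays at 82.7 to 86.3.

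The E cyclins and Cdk2 carry a cell from the first gap phase into replication. Against not axotomised neurons, Ccne1 and Cdk2 had values below 0 and Ccne2 had mixed ones. Cdk2 was tested only through the not axotomised arrays, so its values against them are a description and no support for a direction. Ccne1, which encodes cyclin E1, had signals of 26.9, 59.9 and 70 in regenerating neurons, 40.1, 62.0 and 123.5 in non-regenerating neurons, and 135.5, 105.6 and 94.4 in the not axotomised neurons of MM15, MM18 and MM19. It differed by -0.27 (SE 0.22, adjusted p = 0.776 by limma) for regenerating against non-regenerating neurons, -0.66 (SE 0.29, adjusted p = 0.472 by limma) for non-regenerating against not axotomised neurons and -0.93 (SE 0.28, adjusted p = 0.0802 by limma) for regenerating against not axotomised neurons. All 7 regenerating arrays lay below the 3 not axotomised arrays, and 6 of the 7 non-regenerating arrays did, the other being MM17. Cdk2, the kinase that the E and A cyclins activate, had signals of 6.4, 32.3 and 75.0 in regenerating neurons, 8.4, 19.2 and 129.1 in non-regenerating neurons, and 179.0, 46.9 and 94.9 in the not axotomised neurons of MM15, MM18 and MM19. Its differences were 0.10 (SE 0.20, adjusted p = 0.921 by limma) for regenerating against non-regenerating neurons, -1.24 (SE 0.52, adjusted p = 0.472 by limma) for non-regenerating against not axotomised neurons and -1.14 (SE 0.41, adjusted p = 0.121 by limma) for regenerating against not axotomised neurons. Its groups overlapped, and it spread widely among animals, with non-regenerating MM11 the lowest and MM17 the highest of that group. Ccna2, the cyclin A2 gene, was too dim to test, with signals of 0.5 to 42.1 over the 17 arrays.

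Ccne2, which encodes cyclin E2, had a higher median on the MOON arrays than on the axotomised MM arrays. Its signals were 164.4, 329.9 and 1629.5 in regenerating neurons, 252.8, 659.1 and 1808.5 in non-regenerating neurons, and 931.3, 605.9 and 250.2 in the not axotomised neurons of MM15, MM18 and MM19. The 4 MOON arrays had 970.2 to 1808.5, with a median of 1345.6, against 164.4 to 1065.6 with a median of 327.4 on the 10 axotomised MM arrays. Within animals it differed by -0.48 (SE 0.18, adjusted p = 0.678 by limma) and was lower on the regenerating side in 5 of 7 animals. The difference was -0.66 among the MM and -0.01 among the MOON animals. Against not axotomised neurons it differed by 0.28 (SE 0.54) in non-regenerating and -0.20 (SE 0.61) in regenerating neurons. A dimmer probe set of Ccne2 differed by 0.10 (SE 0.19) within animals, and by -0.72 (SE 0.41) and -0.62 (SE 0.26) against not axotomised neurons, so that the 2 probe sets of the gene did not have the same order of groups.

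**Figure D4:**
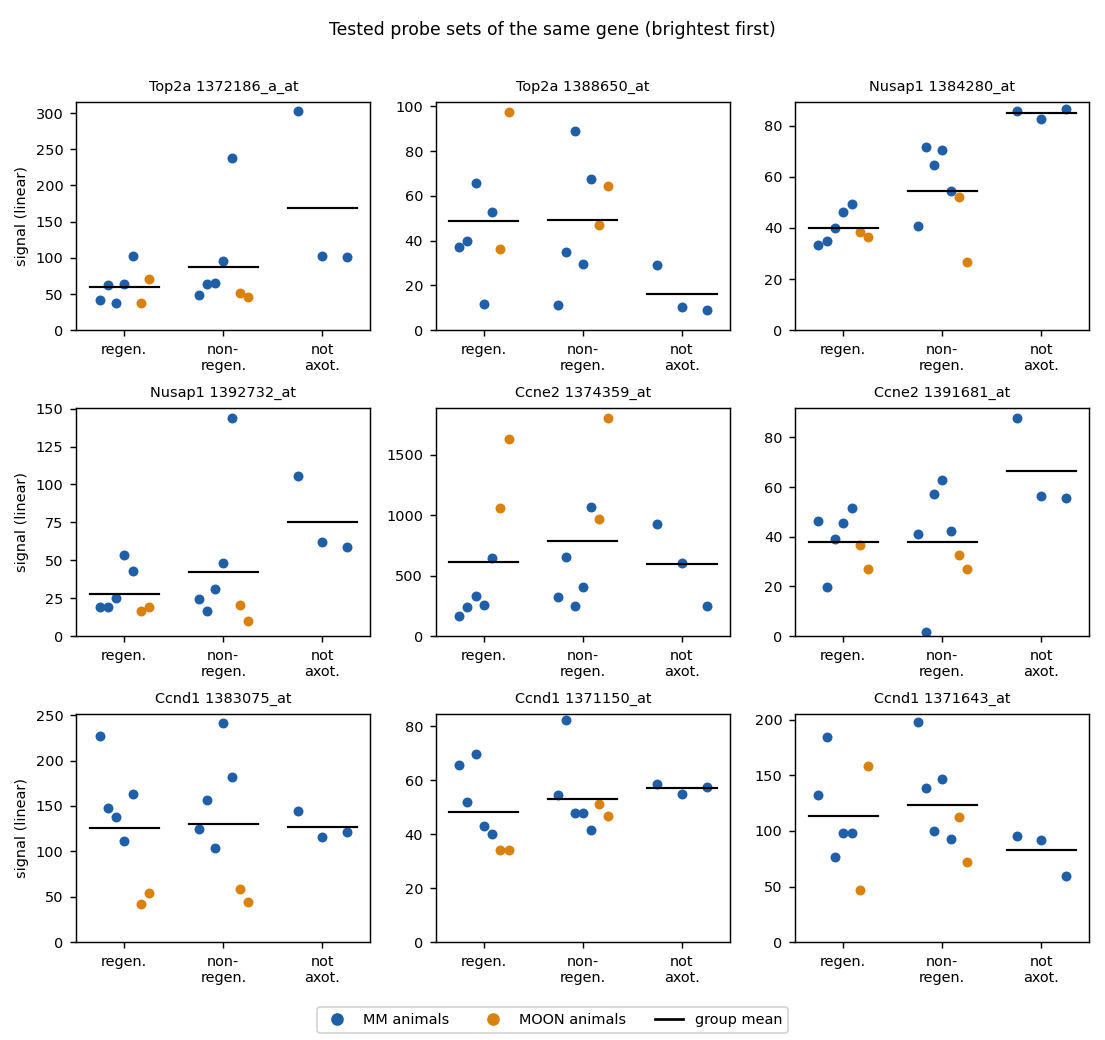
Signal (linear, vertical axes from 0) of the tested probe sets of Top2a, Nusap1, Ccne2 and Ccnd1 on every array, by group, with MM animals in blue, MOON animals in orange and a black line at the group mean. The 2 probe sets of Nusap1 have the same order of group means. For Top2a the not axotomised neurons are the highest group at one and the lowest at the other. The dimmer probe set of Nusap1 passed the filter through the not axotomised arrays alone, and that of Top2a through the axotomised arrays alone.

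Among 5 tested replication genes, Pcna had values above 0 and Mcm4 and Mcm5 below 0 against not axotomised neurons. Lower at an unadjusted p under 0.05 were 0, 1 and 2 of the 5 in the 3 comparisons. The shares of all probe sets lower at that p were 2.81%, 7.61% and 17.6%. Mcm5, which counts among the 2, was tested only through the not axotomised arrays, so its place there is a description. Pcna, the sliding clamp of DNA polymerases, had signals of 400.5, 609.7 and 747.1 in regenerating neurons, 479.0, 611.9 and 749.6 in non-regenerating neurons, and 394.5, 442.3 and 538.7 in the not axotomised neurons of MM15, MM18 and MM19. It differed by -0.02 (SE 0.12, adjusted p = 0.975 by limma) for regenerating against non-regenerating neurons, 0.40 (SE 0.21, adjusted p = 0.473 by limma) for non-regenerating against not axotomised neurons and 0.38 (SE 0.23, adjusted p = 0.353 by limma) for regenerating against not axotomised neurons. Its groups overlapped, and the interval of the difference within animals was -0.28 to 0.24. Mcm4, a subunit of the hexameric helicase that opens DNA for replication, had signals of 153.6, 192.3 and 240.8 in regenerating neurons, 133.3, 205.1 and 390.8 in non-regenerating neurons, and 568.8, 287.7 and 279.5 in the not axotomised neurons of MM15, MM18 and MM19. Its differences were -0.14 (SE 0.14, adjusted p = 0.829 by limma) for regenerating against non-regenerating neurons, -0.69 (SE 0.31, adjusted p = 0.472 by limma) for non-regenerating against not axotomised neurons and -0.83 (SE 0.26, adjusted p = 0.0878 by limma) for regenerating against not axotomised neurons. All 7 regenerating arrays lay below the 3 not axotomised arrays, and non-regenerating MM17, at 390.8, was the array that overlapped with them.

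The other helicase subunits did not share 1 pattern. Mcm5, tested only through its not axotomised arrays, differed from them by -0.88 (SE 0.46) in non-regenerating and -0.88 (SE 0.27) in regenerating neurons, and its regenerating signals of 19.6 to 40.1 lay below the not axotomised ones of 118.1, 51.0 and 52.9. Mcm2 and Mcm7, subunits of the same ring, differed by -0.01 (SE 0.27) and 0.07 (SE 0.31) in regenerating against not axotomised neurons, with intervals of -0.58 to 0.56 and -0.59 to 0.72. Mcm7 was higher on the regenerating side in 6 of 7 animals, by 0.12 (SE 0.14), and all 4 MOON arrays lay below the axotomised MM arrays, at 95.2 to 125.4 against 140.4 to 260.7. Mcm3 and Mcm6 were too dim to test. Mcm3, picked out after its values were seen, had signals of 3.2, 10.9 and 25.6 in regenerating neurons, 2.3, 9.8 and 58.4 in non-regenerating neurons, and 115.5, 40.6 and 24.1 in the not axotomised neurons of MM15, MM18 and MM19. The not axotomised signals of Mcm3 overlapped with the axotomised ones, since MM19, at 24.1, lay below non-regenerating MM17, at 58.4. The filter used the mean over all 17 arrays. A gene whose mean lay above the limit over the not axotomised arrays alone could fail it, as Mcm3 did. It could also pass through those arrays, as Cdk2 and Mcm5 did.

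Of the genes of nucleotide synthesis, only Tk1, the thymidine kinase of the salvage pathway, was bright enough to test. It had signals of 17.7, 38.6 and 65.5 in regenerating neurons, 18.5, 42.8 and 55.4 in non-regenerating neurons, and 69.7, 61.6 and 68.5 in the not axotomised neurons of MM15, MM18 and MM19. It differed by -0.12 (SE 0.17) within animals, -0.57 (SE 0.29) in non-regenerating and -0.69 (SE 0.28) in regenerating against not axotomised neurons. The non-regenerating arrays all lay below the not axotomised ones, and among the regenerating arrays MM17 overlapped with them. Tyms, the thymidylate synthase, and Rrm1, the large subunit of ribonucleotide reductase, were too dim, at 8.6 to 42 and 3.9 to 83.6 over the 17 arrays.

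The mitotic cyclins and Cdk1 showed small differences within animals. Cdk1, the kinase that drives entry into mitosis, had signals of 28.4, 59.4 and 132.0 in regenerating neurons, 38.3, 61.9 and 106.3 in non-regenerating neurons, and 153.6, 43.8 and 48.3 in the not axotomised neurons of MM15, MM18 and MM19. It differed by -0.22 (SE 0.16, adjusted p = 0.762 by limma) for regenerating against non-regenerating neurons, -0.07 (SE 0.37, adjusted p = 0.952 by limma) for non-regenerating against not axotomised neurons and -0.29 (SE 0.40, adjusted p = 0.707 by limma) for regenerating against not axotomised neurons. It was lower in the regenerating neurons of 6 of 7 animals, and its groups overlapped, with MM15 far above the other not axotomised arrays. Ccnb1, which encodes cyclin B1, its activator, had signals of 87.0, 112.4 and 154.9 in regenerating neurons, 81.6, 128.9 and 184.9 in non-regenerating neurons, and 139.1, 143.0 and 199.0 in the not axotomised neurons of MM15, MM18 and MM19. Its differences were -0.11 (SE 0.14, adjusted p = 0.872 by limma) for regenerating against non-regenerating neurons, -0.30 (SE 0.27, adjusted p = 0.654 by limma) for non-regenerating against not axotomised neurons and -0.41 (SE 0.24, adjusted p = 0.326 by limma) for regenerating against not axotomised neurons. The groups overlapped. Ccnb2, the gene of cyclin B2, differed by -0.53 (SE 0.24) in regenerating against not axotomised neurons, with signals of 29.0 to 64.7 against 73.1, 67.9 and 65.8, which did not overlap. Cks2, a small protein that binds Cdk1, differed by -0.27 (SE 0.19) within animals and by 0.06 (SE 0.25) in regenerating against not axotomised neurons. Cdkn3, a phosphatase that acts on CDKs, was too dim to test.

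Among the tested members, the mitotic kinase Pbk had the smallest p between regenerating and non-regenerating neurons, though it was not called and the groups overlapped. Its signals were 2.8, 37.9 and 87.7 in regenerating neurons, 6.4, 87.5 and 158.4 in non-regenerating neurons, and 75.5, 76.0 and 90.4 in the not axotomised neurons of MM15, MM18 and MM19. In pairs of regenerating and non-regenerating signals, the 7 animals had 40.6 and 41.3 (MM11), 2.8 and 6.4 (MM13), 37.9 and 158.4 (MM14), 13.1 and 87.5 (MM16), 57.5 and 149.0 (MM17), 22.1 and 48.4 (MOON265), and 87.7 and 151.7 (MOON266). Every animal had it lower on the regenerating side, and 2.09% of all probe sets had 1 direction in all 7. In words, the size ran from near 0 in MM11 to wide gaps in MM14 and MM16. The difference was -0.92 (SE 0.22, adjusted p = 0.523 by limma) within animals, -0.99 among the MM and -0.73 among the MOON animals. Against not axotomised neurons Pbk differed by -0.13 (SE 0.54, adjusted p = 0.941 by limma) in non-regenerating and -1.05 (SE 0.42, adjusted p = 0.153 by limma) in regenerating neurons.

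**Figure D5:**
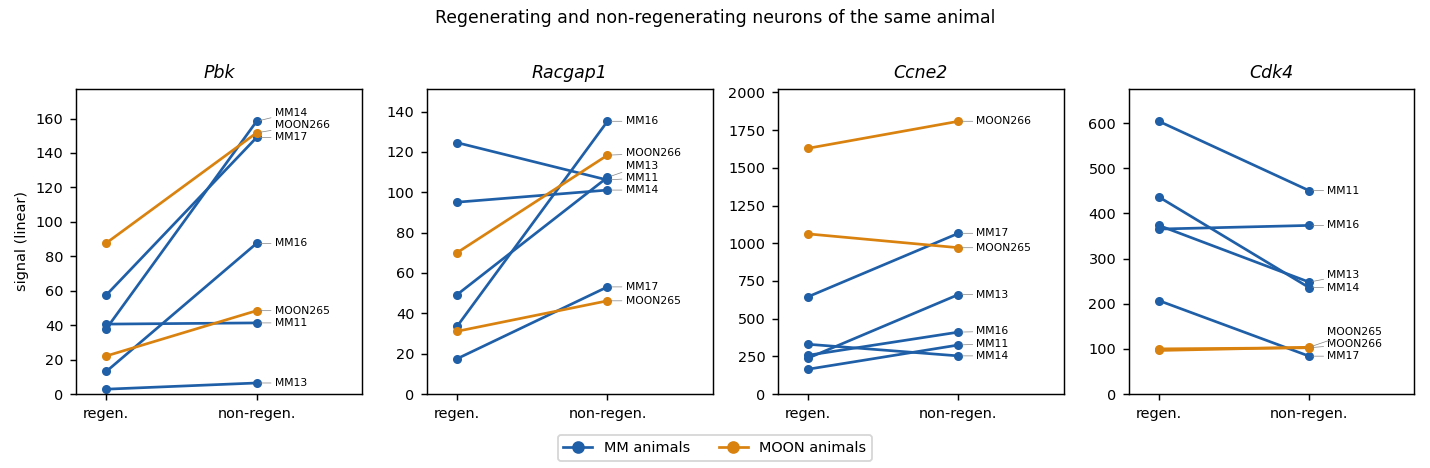
Signal (linear, vertical axes from 0) of the 4 cell cycle genes with the smallest p within animals, with a line joining the regenerating and the non-regenerating neurons of each animal, MM animals in blue and MOON animals in orange. Pbk is lower in the regenerating neurons of 7 of 7 animals and Racgap1 of 6, while Ccne2 and Cdk4 show lines in both directions.

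The Aurora kinases and their partner Birc5 differed from one another. Birc5, which encodes survivin of the chromosomal passenger complex, had signals of 13.9, 60.8 and 82.1 in regenerating neurons, 33.5, 47.4 and 117.2 in non-regenerating neurons, and 115.7, 88.1 and 108.1 in the not axotomised neurons of MM15, MM18 and MM19. It differed by -0.17 (SE 0.20, adjusted p = 0.852 by limma) for regenerating against non-regenerating neurons, -0.70 (SE 0.34, adjusted p = 0.472 by limma) for non-regenerating against not axotomised neurons and -0.87 (SE 0.33, adjusted p = 0.135 by limma) for regenerating against not axotomised neurons. All 7 regenerating arrays lay below the not axotomised ones, and non-regenerating MM14 and MM17 overlapped with them. Aurkb, the kinase of the same complex, was higher on the regenerating side in 6 of 7 animals, by 0.31 (SE 0.18), with non-regenerating MM17 at 103.0 as the exception. Aurka, the kinase of the centrosome, was at 85.5 to 97.5 in the regenerating neurons of the 5 MM animals and at 34.8 and 50.9 in those of MOON265 and MOON266. It differed by 0.10 (SE 0.17) within animals, by 0.27 among the MM and -0.31 among the MOON animals, and by 0.55 (SE 0.30) in regenerating against not axotomised neurons. Ube2c, which carries ubiquitin to the APC/C, differed by -0.09 (SE 0.18), -0.47 (SE 0.42) and -0.56 (SE 0.37) in the 3 comparisons. Plk1, an early mitotic kinase, the checkpoint kinases Bub1 and Bub1b, and Cdc20, which activates the APC/C, were too dim to test, with none of the 5 probe sets of Cdc20 above the limit.

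The genes of the spindle and of the chromosomes had a median of -0.86 over 5 tested members in regenerating against not axotomised neurons. Over all probe sets it was -0.12. With the arrays centred the median over the 5 was -0.47. With no filter it was -0.46 over 8 members, beside -0.17 over all probe sets. At an unadjusted p under 0.05, 3 of the 5 were lower and 1 higher, beside 17.6% and 5.98% of all probe sets. The 3 include Top2a at its brighter probe set, while its second tested one differed in the other direction, as described below. Nusap1, a spindle protein that bundles microtubules, had signals of 33.4, 38.3 and 49.3 in regenerating neurons, 26.6, 54.6 and 71.5 in non-regenerating neurons, and 85.7, 82.7 and 86.3 in the not axotomised neurons of MM15, MM18 and MM19. It differed by -0.30 (SE 0.17, adjusted p = 0.714 by limma) for regenerating against non-regenerating neurons, -0.56 (SE 0.29, adjusted p = 0.473 by limma) for non-regenerating against not axotomised neurons and -0.86 (SE 0.21, adjusted p = 0.0684 by limma) for regenerating against not axotomised neurons. Neither axotomised group overlapped with the not axotomised arrays, which lay within 82.7 to 86.3. Its second probe set differed by -0.20 (SE 0.21), -0.88 (SE 0.46) and -1.08 (SE 0.29), in the same directions. The mean log2 signal of that probe set over the axotomised arrays lay under the limit of 5.65. It was tested only through the not axotomised arrays, so its directions against them are a description and no support. With the arrays centred, Nusap1 differed by -0.47 in regenerating and by -0.20 in non-regenerating against not axotomised neurons.

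Top2a, the topoisomerase that untangles chromosomes before they separate, had signals of 37.3, 61.9 and 102.8 in regenerating neurons, 45.8, 63.9 and 237.4 in non-regenerating neurons, and 302.3, 102.1 and 100.6 in the not axotomised neurons of MM15, MM18 and MM19. It differed by -0.31 (SE 0.19, adjusted p = 0.725 by limma) for regenerating against non-regenerating neurons, -0.86 (SE 0.45, adjusted p = 0.473 by limma) for non-regenerating against not axotomised neurons and -1.17 (SE 0.35, adjusted p = 0.0802 by limma) for regenerating against not axotomised neurons. The highest array was MM15, followed by non-regenerating MM17, while the other 2 not axotomised arrays lay level with the highest of the regenerating ones. The second tested probe set of Top2a had signals of 11.6, 39.8 and 97.6 in regenerating neurons, 11.4, 47.2 and 88.8 in non-regenerating neurons, and 29.2, 10.3 and 9.1 in the not axotomised neurons of MM15, MM18 and MM19. There the differences from not axotomised neurons were 0.95 (SE 0.40) in non-regenerating and 0.95 (SE 0.37) in regenerating neurons, opposite in sign to those of the brighter probe set, and -0.01 (SE 0.20) within animals. The mean log2 signal of this second probe set over the not axotomised arrays lay under the limit of 5.65. It passed the filter through the axotomised arrays alone, so its higher values there are a description and no support for a direction. No single direction is given for Top2a.

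Kif11, the motor that pushes the spindle poles apart, had signals of 31.3, 55.2 and 82.2 in regenerating neurons, 31.7, 64.1 and 151.5 in non-regenerating neurons, and 175.9, 104.6 and 85.2 in the not axotomised neurons of MM15, MM18 and MM19. Its differences were -0.22 (SE 0.17, adjusted p = 0.766 by limma) for regenerating against non-regenerating neurons, -0.70 (SE 0.39, adjusted p = 0.489 by limma) for non-regenerating against not axotomised neurons and -0.93 (SE 0.28, adjusted p = 0.0817 by limma) for regenerating against not axotomised neurons. All 7 regenerating arrays lay below the not axotomised ones, and the MOON arrays, at 31.3 to 43.5, lay below all axotomised MM arrays, at 52.6 to 151.5. Racgap1, a part of the centralspindlin complex of cytokinesis, had signals of 17.5, 49.3 and 124.6 in regenerating neurons, 46.2, 106.1 and 135.2 in non-regenerating neurons, and 59.4, 101.2 and 82.0 in the not axotomised neurons of MM15, MM18 and MM19. It differed by -0.64 (SE 0.20, adjusted p = 0.678 by limma) for regenerating against non-regenerating neurons, 0.16 (SE 0.33, adjusted p = 0.869 by limma) for non-regenerating against not axotomised neurons and -0.48 (SE 0.40, adjusted p = 0.498 by limma) for regenerating against not axotomised neurons. In 6 of 7 animals it was lower on the regenerating side, MM11 being the exception. Prc1, which bundles the microtubules of the central spindle, was higher in regenerating than in not axotomised neurons by 0.82 (SE 0.27, adjusted p = 0.0929 by limma), with signals of 72.0 to 148.1 against 50.2, 37.0 and 59.5, which did not overlap. Within animals Prc1 was higher in the regenerating neurons of 6 of 7, by 0.43 (SE 0.22), with 0.68 among the MM and -0.20 among the MOON animals.

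Mki67, the gene of the proliferation antigen Ki-67, was too dim to test. Its signals were 10.8, 21.2 and 42.8 in regenerating neurons, 6.7, 18.6 and 80.3 in non-regenerating neurons, and 32.4, 33.1 and 35.4 in the not axotomised neurons of MM15, MM18 and MM19. The groups overlapped, and non-regenerating MM17 was the highest array. The central spindle motors Kif20a and Kif23 were too dim as well, at 2.3 to 44.0 and 14.4 to 61.5 over the 17 arrays. Among the members just inside and just outside the limit of about 34.0 on the scale of the mean log2 signal, Mcm5 and Cdk2 stood at 35.7 and 40.3, and Kif23 and Mcm6 at 33.2 and 31.7.

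The prefixes of the animal names set 5 members fully apart on the 14 axotomised arrays. The 4 MOON arrays lay below all 10 MM arrays for 5 of the 27 members (18.5%), Ccnd1, Ccnd3, Mcm7, Aurka and Kif11, and above all of them for 0, where 14.6% of all probe sets lay below and 5.34% above. Single arrays were often the highest of their group. Non-regenerating MM17 was the highest of its group for 13 members (48.1%), against 34.2% of all probe sets, and regenerating MM17 for 11 (40.7%), against 22%. Not axotomised MM15 was the highest of 3 for 16 members (59.3%), against 43%. Among MM animals alone, 9 members were lower and 3 higher in regenerating than in not axotomised neurons at an unadjusted p under 0.05. Of all probe sets, 16.7% were lower and 11% higher. The median of that comparison was -0.42 over the members and -0.06 over all probe sets. For non-regenerating against not axotomised neurons, 0 members passed that p in either direction, beside 2.61% of all probe sets lower and 2.72% higher.

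Genes of the cell cycle outside the 42 were read from lists by function, and 0 of them passed limma in any of the 3 comparisons. Of 5 tested CDK inhibitors, the brakes of the cycle, 0 had an unadjusted p under 0.05 in any comparison. Cdkn1b, which encodes p27, was the brightest of them, at 788 ± 149 in regenerating, 891 ± 278 in non-regenerating (SD, n = 7 each) and 942 ± 444 in not axotomised neurons (SD, n = 3), with ranges that overlapped. Of 17 tested genes of the Rb, E2F and related factors, 8 had values above 0 and 9 below in regenerating against not axotomised neurons, with a median of -0.09. An unadjusted p under 0.05 was found for 6 above and 2 below 0, beside 5.98% and 17.6% of all probe sets. With the arrays centred, 14 of the 17 lay above 0, beside 69.3% of all probe sets. The median was then 0.30, beside 0.26 over all probe sets. The 4 with the smallest p are named: the pocket proteins Rbl1 and Rbl2, which hold E2F targets silent in resting cells, differed by 0.90 (SE 0.28) and 0.77 (SE 0.25), Lin54, the subunit of the DREAM complex that binds the CHR, by 0.77 (SE 0.24), and E2f6, a repressor, by 0.88 (SE 0.30). These 4 genes were not called (adjusted p = 0.0837 to 0.0983 by limma), and for each the regenerating arrays lay above all not axotomised arrays. Of the 17 genes, 6 did not overlap, beside 11.7% of all probe sets. Rb1 and E2f4 had mean log2 signals of 8.92 and 7.01 on the 14 axotomised arrays, below the 9.29 and 7.21 of the 3 not axotomised arrays. E2f1 lay higher on the axotomised arrays, at 6.52 against 5.74. Mybl2, the activator that takes the place of the pocket proteins in dividing cells, differed by -0.96 (SE 0.33) in non-regenerating and -0.83 (SE 0.30) in regenerating neurons. Both groups lay below the not axotomised arrays, where 2.56% and 11.7% of all probe sets did not overlap in these 2 comparisons.

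Of 28 tested genes of replication besides the members, 2 were higher and 4 lower in regenerating than in not axotomised neurons at an unadjusted p under 0.05, near the 5.98% and 17.6% of all probe sets, and the median was -0.24. Of the 2 higher, Rpa2, a subunit of the protein that coats single-stranded DNA, passed the filter through the axotomised arrays alone. Cdc45, which binds the MCM ring at the fork, differed by -1.04 (SE 0.27), with an adjusted p of 0.0684 by limma and no overlap, and Mcm10 by -0.79 (SE 0.30). Within animals Orc4, of the origin recognition complex, differed by -0.40 (SE 0.12) and Orc2 of the same complex by 0.28 (SE 0.12). Among 29 tested mitotic genes, 1 was higher and 7 lower at such a p in regenerating than in not axotomised neurons, beside 5.98% and 17.6% of all probe sets, and the median was -0.42, or -0.03 with the arrays centred. Ttk, a checkpoint kinase, was the one higher, by 2.17 (SE 0.49), with signals of 78.4 to 542.4 against 3.2 to 31.0, and Cdca3, a trigger of mitotic entry, differed by -1.97 (SE 0.50), with 43.3 to 399.8 against 459.3 to 784.7. Ttk passed the filter through the axotomised arrays alone, with a mean log2 signal of 6.98 there against 4.96 on the not axotomised arrays, so its difference is a description.

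The remaining lists were the APC/C and the CDKs and cyclins of other roles. Of 12 tested subunits of the APC/C and its coactivator, 2 were higher and 0 lower in regenerating than in non-regenerating neurons at an unadjusted p under 0.05, beside 4.26% and 2.81% of all probe sets, Anapc5 by 0.38 (SE 0.14) and Anapc2 by 0.33 (SE 0.15), and the median of the list was 0.16. Among 18 tested CDKs and cyclins that act in neurons or in transcription, the median within animals was -0.02. Cdk5, the kinase of neuronal migration and the cytoskeleton, differed by 0.49 (SE 0.19), at 122 ± 61.6 in regenerating and 81.1 ± 44.7 in non-regenerating neurons (SD, n = 7 each), and it was higher on the regenerating side in 6 of 7 animals. Cdk13 and Cdk18 of this list differed in regenerating against not axotomised neurons by -1.11 (SE 0.31) and -1.04 (SE 0.30).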

How the data were processed

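RNA levels of 17 samples were read on 1 Affymetrix rat array each. The deposited intensities are linear signals per probe set, which the authors computed in GCOS, Affymetrix's array software, per the submitters' processing notes. The version and settings of GCOS are not given in the sources used here. They were not normalized again. To each signal 16 was added, which is the 25th percentile over the whole table, and log2 was taken. Left out were 57 control probe sets and 12417 dim ones, under the 40th percentile of mean log2 signal (a signal of 34.0), and 18625 were tested.

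Grouping followed the labels. The 7 animals whose names the labels give in both axotomised groups entered the comparison of regenerating with non-regenerating samples as a block. As a check, deviations from the group means correlated within animals with r = 0.34 to 0.71 across probe sets. Each group was also compared with not axotomised samples between animals. Models were fitted with lmFit and eBayes (with an intensity trend) of limma 3.58.1, under R 4.3.3, with Benjamini-Hochberg adjustment over 18625 probe sets and a threshold of 0.05. They were tested on simulated data. Python 3.11.15, pandas 2.3.3 and matplotlib 3.10.9 made the summaries and figures.

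A gene was given at its brightest probe set with 1 symbol, and other tested probe sets where they differed in sign or in passing an unadjusted p of 0.05. Signals were printed for the 4 members with the smallest p in each comparison and for a fixed set (Ccnd1, Ccnd2, Cdk4, Pcna, Mki67, Top2a, Cdk1 and Ccnb1), and up to 4 genes with the smallest p were named from each other list. Other members described were picked with their values in view. The members and lists were chosen with earlier results of these data known. Alternatives covered normalization, offset, filter, array weights, the block, name prefixes and each array left out. Rrm2, found only in probe sets with several symbols, and Tpx2, which the probe table does not name, were not analysed here.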

Additional observations from a re-analysis of the deposited data

Results flagged for a closer look

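In 54 groups of 7 samples, the 27 tested members in regenerating and in non-regenerating neurons, the highest or lowest array was set against the rest by Dixon's criterion, which chance meets in about 5% of groups. It was met 4 times, each time by the highest non-regenerating array. Ccne1 had a signal of 123.5 in non-regenerating MM17, against 40.1 to 65.4 in the other 6 animals. Aurkb had 103.0 in non-regenerating MM17, against 30.5 to 41.4. Top2a had 237.4 in non-regenerating MM17, against 45.8 to 95.5. Aurka had 105.0 in non-regenerating MM11, against 54.1 to 71.3. The array of non-regenerating MM17 is 1 of the 2 that stood apart from the others over all probe sets.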

How the results depend on the processing

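Between regenerating and non-regenerating neurons, 0 cell cycle genes were called under any of 20 alternatives, and the median over the members ran from -0.14 to 0.05. Of all probe sets, 3 were called, against 0 with quantile normalization, with offset 1, with no filter, without the arrays that stood apart and without the animal block that pairs the samples, and 1 with 1 fit over all 17 arrays or with MM animals alone. Leaving out 1 animal gave 0 to 3, with 0 without MM11, MM13, MM14 or MM17 and 1 without MOON266. Among MOON animals alone, an alternative chosen after seeing the data, Cdk4 was at -0.060.

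Between non-regenerating and not axotomised neurons, 8 probe sets were called, against 17 with quantile normalization, 3 with offset 64, 2440 with array weights, 23 with 1 fit over all arrays and 3 with MM animals alone. Leaving out 1 array gave 2 (without MM18) to 37 (without non-regenerating MM17), and 3 when the one left out was MM15, or the non-regenerating array of MM11, of MM13, of MM14 or of MOON266. Array weights called 3 members, Ccne1, Cdk2 and Mcm5, all lower. Cdk2 and Mcm5 had passed the filter through the not axotomised arrays alone, so their direction is a description and no support. The median over the members was 0.15 with quantile normalization, 0.23 with centred arrays and 0.31 for the 6 members past the filter at the 70th percentile.

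Between regenerating and not axotomised neurons, 40 probe sets were called, against 213 with quantile normalization, 350 with centred arrays, 859 with offset 64, 20 with the 70th percentile filter, 3131 with array weights, 70 with MM animals alone, 202 with the prefix as a term and 1 without the arrays that stood apart. Leaving out 1 array gave 1 (without MM15) to 1504 (without regenerating MM17), with 2 without MM18, 7 without MM19, and 19, 10, 20 and 24 without regenerating MM11, MM13, MM14 and MOON266. Members called were 1 with quantile normalization (Prc1, higher), 2 with centred arrays (Aurka and Prc1, higher), 1 with offset 64 (Nusap1, lower) and 13 with array weights (3 higher and 10 lower). Leaving out 1 array called 0 to 3 members, the 3 being Kif11, Nusap1 and Top2a, lower without regenerating MM17. Top2a stands there for its brighter probe set alone. The median was -0.13, -0.022 and 0.22 with quantile normalization, centred arrays and the 70th percentile filter. With no filter it was -0.25 over 40 members. The cause of these moves was not tested. The number of arrays and the low signals limit these results.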
